A study of Homo sapiens with 4 samples.

Results

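The miRNAs described here are the mature products of the human genes MIR137, MIR138-1 and MIR138-2, taken by name from a table of 2656 mature miRNAs. The rule selected 5 of them: miR-137-3p, miR-137-5p, miR-138-5p, miR-138-1-3p and miR-138-2-3p. They were read in 4 small RNA-seq libraries of cortical interneurons, inhibitory nerve cells differentiated in culture from the human embryonic stem cell (hESC) line H1. In 2 libraries the cultures had been exposed to ethanol at around 50 to 100 mM for 7 days, and in 2 they had been kept for 7 days without ethanol. All 4 libraries come from this 1 line, and the paper describes a further day without ethanol before collection and treatments done in duplicate. The question was whether ethanol changed the levels of miRNAs in these cells.

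A miRNA is cut from a hairpin precursor, and either arm of the hairpin (5p or 3p) can be loaded into an Argonaute protein, where the bases near its 5′ end, the seed, pair with target mRNAs and lower their output. miR-137 is enriched in brain, acts in neuronal maturation and dendrite growth, and its gene lies in a region associated with schizophrenia. miR-138 is also enriched in brain, is found in dendrites, and restrains the growth of dendritic spines, the small protrusions that carry excitatory synapses.

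The mature sequences are given first, since the seeds decide which targets each arm can pair with. They come from RefSeq (build GRCh38.p14), which held all 5 names, and the capitals mark the seed, bases 2 to 8 counted from the 5′ end.
miR-137-3p: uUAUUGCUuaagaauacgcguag
miR-137-5p: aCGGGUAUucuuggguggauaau
miR-138-5p: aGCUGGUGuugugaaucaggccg
miR-138-1-3p: gCUACUUCacaacaccagggcc
miR-138-2-3p: gCUAUUUCacgacaccaggguu
No seed was shared, either among the 5 miRNAs or with any other of the 2370 mature names of the RefSeq table (0 other names for each of the 5 seeds). The mRNA sites complementary to the seed, written in DNA letters, are AGCAATA for miR-137-3p and CACCAGC for miR-138-5p. The 3p arms of miR-138 have the same 22-base length and are identical at 18 bases. The 4 differences, written with the miR-138-1-3p base first and the miR-138-2-3p base last, are C5U, A11G, C21U and C22U, and 1 of them, C5U, lies in the seed.

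The hairpins show where these arms come from, with both mature arms in capitals.
MIR137: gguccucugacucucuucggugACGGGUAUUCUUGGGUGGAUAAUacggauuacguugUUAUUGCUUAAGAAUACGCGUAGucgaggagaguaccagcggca
MIR138-1: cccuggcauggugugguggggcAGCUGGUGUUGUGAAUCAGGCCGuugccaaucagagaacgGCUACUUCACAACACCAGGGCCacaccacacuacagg
MIR138-2: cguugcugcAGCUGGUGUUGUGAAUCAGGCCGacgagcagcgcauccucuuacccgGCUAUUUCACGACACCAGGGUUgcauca
MIR137 lies on the minus strand at chr1:98046070-98046171 (GRCh38), inside exon 3 (98046008 to 98046396) of a transcript of the long noncoding RNA gene MIR137HG in GENCODE 29. MIR138-1 lies on the plus strand at chr3:44114212-44114310 and MIR138-2 on the plus strand at chr16:56858518-56858601. Neither MIR138 gene overlaps another gene of GENCODE 29. The nearest protein-coding genes are TOPAZ1, 127575 bp away, for MIR138-1 and SLC12A3, 6605 bp away, for MIR138-2. The stretch between the arms is 13 bases in MIR137, 17 in MIR138-1 and 24 in MIR138-2, while the 5p arm of both MIR138 hairpins is the same 23 bases. A read of miR-138-5p therefore does not tell which of its genes it came from, and only the 3p arms separate the copies. Apart from the other 3p arm of miR-138, at 4 edits, no other mature sequence of the table came closer to any of the 5 miRNAs than 8 edits (substitutions, insertions or deletions).

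The libraries held between 12100425 and 24858230 counts on mature miRNAs, and each exposed library was deeper than each unexposed library, so depth and exposure cannot be told apart. Levels below are counts per 1000000 (CPM) after TMM scaling, which multiplies each library's depth by a factor, here between 0.846 and 1.13. A count of 3, taken as the least that can be told from 0, corresponds to 0.121 to 0.248 CPM before that scaling. Marker miRNAs were read to check the cell type. The 7 neuronal markers (miR-124, miR-9, miR-128, miR-218, miR-129 and miR-7 arms) summed to 309410 and 396064 CPM under ethanol and to 371685 and 489025 CPM without it. Most of each sum was miR-9-5p and miR-7-5p, while miR-124-3p was at 2190 to 5405 CPM. Their log2 fold changes with ethanol went both ways, from -0.64 for miR-7-5p to 0.77 for miR-124-3p, with 3 of the 7 above 0. The 4 glial markers (miR-219a and miR-338 arms) summed to 288 to 308 against 255 to 306 CPM. Almost all of this was miR-338-5p and miR-219a-2-3p, while miR-219a-5p had between 3 and 17 counts per library. The 2 choroid plexus markers (miR-204-5p, miR-211-5p) summed to 797 to 988 against 876 to 957 CPM, and 5 mesenchymal markers to 80.2 to 106 against 102 to 111 CPM. The 5 pluripotency markers of the miR-302/367 cluster summed to 1.59 to 1.93 against 2.29 to 3.26 CPM, with miR-367-3p at 0 counts in all 4 libraries. The 4 blood and endothelial markers summed to 919 to 1013 against 801 to 889 CPM, almost all of it miR-126-3p, with miR-223-3p at 0 counts. Their part in the values below was not tested, and in bulk libraries fewer cells of a type and less RNA per cell cannot be told apart.

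All 5 miRNAs were measured in every library and passed the filter on low counts, which kept 863 of the 2656. The lowest count of any of them was 92, for miR-138-1-3p in unexposed replicate 2. They lay in the upper and middle range of the tested miRNAs. Ordered by mean TMM level over the 4 libraries, miR-137-3p stood at rank 188 with 75.4 CPM, miR-138-5p at rank 214 with 55.4 CPM, miR-138-2-3p at rank 260 with 30.0 CPM, miR-137-5p at rank 371 with 10.4 CPM and miR-138-1-3p at rank 398 with 8.30 CPM. These RNAs are 22 or 23 bases long, so CPM compares them without a correction for length. How efficiently each sequence entered the libraries was not measured. The order here and the ratios between miRNAs below are therefore of counts, not of molecules in the cells. Neighbours in this order were not separated: the ranges over 4 libraries of let-7a-3p, miR-20b-5p, miR-378i and miR-873-3p all overlapped that of miR-137-3p, and those of miR-3605-3p, miR-25-5p, miR-370-3p and miR-543 overlapped that of miR-138-5p. The same held for the neighbours of the 3 rarer arms, such as miR-1250-5p beside miR-138-2-3p, miR-590-3p beside miR-137-5p and miR-942-5p beside miR-138-1-3p.

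**Figure D1:**
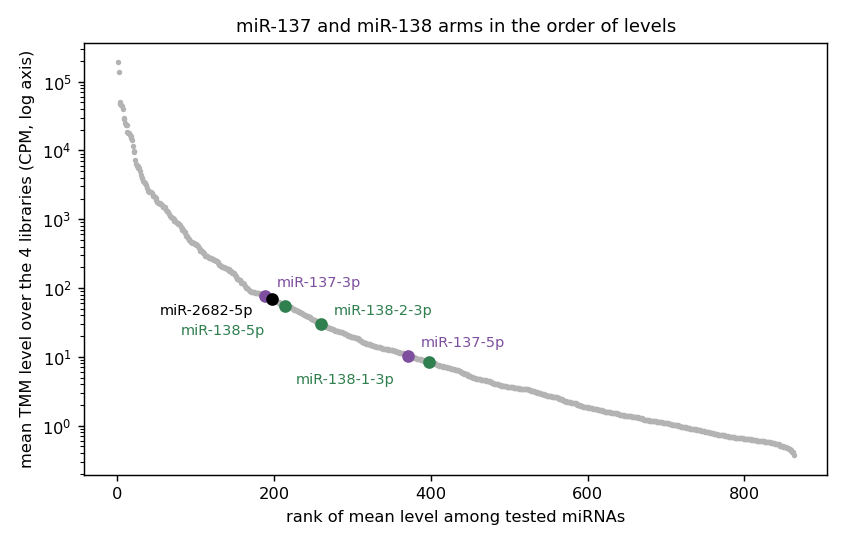
Mean TMM level in CPM over the 4 libraries (vertical log axis) against rank among the 863 tested miRNAs (grey points), with the miR-137 arms in purple, the miR-138 arms in green and miR-2682-5p in black. The main arms, miR-137-3p at 75.4 CPM and miR-138-5p at 55.4 CPM, lie at ranks 188 and 214, and miR-138-1-3p, the rarest of the 5, at rank 398.

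Ethanol-exposed and unexposed interneurons did not differ detectably in any of the 5 miRNAs. In edgeR's quasi-likelihood test, 0 of the 5 had an unadjusted P under 0.05, against 4.52% of all 863 miRNAs tested, and 0 were also past a fold change of 2, against 2.32%. The smallest P of the 5 was 0.395 and the largest 0.944. Limma-voom and DESeq2 also gave 0 of the 5. Over all 863 miRNAs 0 had an adjusted p under 0.05 (a share of 0%), and 39 had an unadjusted P under 0.05. After TMM scaling the exposed and unexposed libraries overlapped for each of the 5, while they did not overlap for 33.4% of all miRNAs tested. If group labels made no difference, 2 libraries against 2 would show no overlap for a share of 0.333, close to that 33.4%. The median log2 fold change of the 5 was 0.067, and that of all tested miRNAs -0.010.

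miR-137-3p, the arm of the MIR137 hairpin counted most and the one usually meant by miR-137, was at 74.9 and 84.8 CPM in the exposed libraries and at 83.8 and 58.3 CPM in the unexposed libraries. Unexposed replicate 2 was the lowest library, and unexposed replicate 1 lay between the exposed replicates. Exposed cells averaged 79.8 ± 7.02 CPM (SD, n = 2), and unexposed cells 71.1 ± 18.1 CPM (SD, n = 2). This gave a log2 fold change of 0.17 (standard error 0.26), for which edgeR's unadjusted P was 0.542 and its adjusted p 0.968 (exact permutation test 0.667). Its 95% interval ran from -0.44 to 0.78, or from 0.736-fold to 1.71-fold. The log2 fold change was -0.11 when unexposed replicate 2 was left out, and was 0.45, with a P of 0.135 in edgeR, when unexposed replicate 1 was left out.

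miR-137-5p, the other arm of the same hairpin, was at 9.56 and 11.7 CPM in the exposed libraries and at 10.8 and 9.56 CPM in the unexposed libraries. The unexposed libraries lay within the range of the exposed ones. The log2 fold change was 0.063 (standard error 0.28), with an unadjusted P of 0.831 in edgeR, an exact permutation p of 1 and a 95% interval from -0.59 to 0.72. Within each library, miR-137-3p had 7.83 and 7.27 times the counts of miR-137-5p with ethanol and 7.79 and 6.10 times without. The hairpin was thus read mainly from its 3p arm in all 4 libraries. The mean log2 ratio was 2.91 ± 0.076 (SD, n = 2) in exposed and 2.78 ± 0.25 (SD, n = 2) in unexposed cells, with an exact permutation p of 0.667. Over the 195 precursors of which both arms were tested, the median fold between the arms was 9.98, and 79 had a smaller fold than the 7.21 of miR-137.

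miR-138-5p, the arm known from dendritic spines, was at 61.9 and 58.7 CPM in the exposed libraries and at 61.9 and 39.2 CPM in the unexposed libraries. Unexposed replicate 2 again stood below the other 3 libraries, and unexposed replicate 1 was between the exposed libraries. Exposed cells averaged 60.3 ± 2.32 CPM (SD, n = 2), and unexposed cells 50.5 ± 16.1 CPM (SD, n = 2). The log2 fold change of 0.26 (standard error 0.28) was the highest of the 5, for which edgeR's unadjusted P was 0.395 and its adjusted p 0.940 (exact permutation test 0.667). Its 95% interval, -0.40 to 0.91, allowed from 0.757-fold to 1.88-fold. This value rested on unexposed replicate 2. Without that library the log2 fold change was -0.074, and with unexposed replicate 1 left out instead it was 0.62, with an unadjusted P of 0.0450 and an adjusted p of 0.463 in edgeR, in a fit where the lone unexposed library is assumed to vary like the exposed ones and 99 of 977 miRNAs (10.1%) had an unadjusted P under 0.05.

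The 3p arms, which are the only reads that separate the MIR138 genes, were less variable. miR-138-2-3p was at 31.5 and 28.9 CPM in the exposed libraries and at 31.9 and 27.8 CPM in the unexposed libraries, so that the unexposed libraries were both the highest and the lowest. Its log2 fold change was 0.018 (standard error 0.25), with an unadjusted P of 0.944 in edgeR, an exact permutation p of 1 and a 95% interval from -0.57 to 0.60. The exposed libraries held miR-138-1-3p at 8.64 and 8.34 CPM, and the unexposed libraries at 9.07 and 7.15 CPM, again with the unexposed libraries at both ends. Its log2 fold change was 0.067 (standard error 0.29), with an unadjusted P of 0.821 in edgeR, an exact permutation p of 1 and a 95% interval from -0.60 to 0.73. In this fit, with TMM scaling, each of the 5 intervals lay within a fold change of 2 in both directions. Intervals under other scalings are not given here, and with library size only the log2 fold change of miR-138-5p was 0.44.

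**Figure D2:**
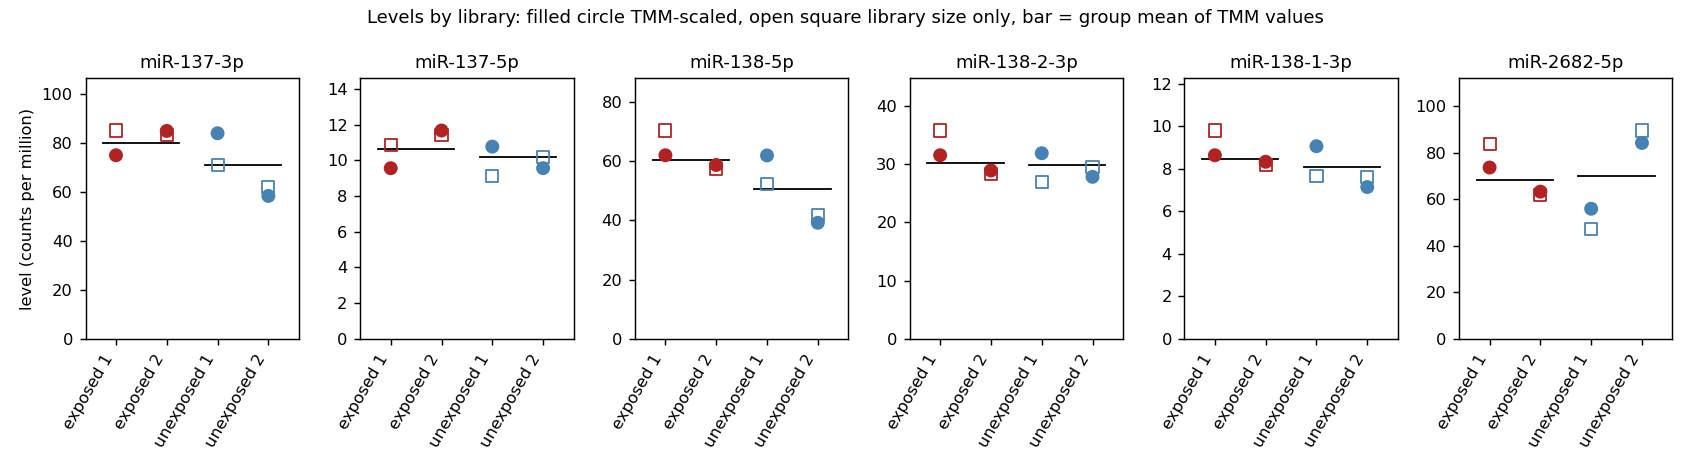
Level in CPM (vertical axis, from 0) of each of the 5 miRNAs and of miR-2682-5p in the 4 libraries, exposed in red and unexposed in blue. Filled circles are TMM-scaled, open squares are scaled by library size only, and bars are the group means of the TMM values. The circles of the groups overlap in every panel, as for miR-138-5p, where unexposed replicate 1 (61.9 CPM) reaches the exposed libraries and unexposed replicate 2 (39.2 CPM) lies below them.

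The scaling decided whether the groups overlapped. Scaled by library size alone, the exposed libraries had 85.0 and 83.0 CPM of miR-137-3p against 70.9 and 62.0 CPM, and 70.3 and 57.4 CPM of miR-138-5p against 52.4 and 41.7 CPM. On that scale both exposed libraries were above both unexposed libraries for 4 of the 5 miRNAs, all but miR-138-2-3p, against 23.5% of all miRNAs tested. The same change of scaling moved the median log2 fold change of all tested miRNAs from -0.010 to 0.14, and that of the 5 to 0.23. No P of the 5 was under 0.05 on that scale either, the smallest being 0.218 for miR-138-5p in edgeR. With upper quartile scaling 2 of the 5 log2 fold changes were above 0, against 5 of the 5 with TMM. With 2 libraries against 2, the smallest two-sided p of an exact permutation test is 0.333, and the labels do not say whether the replicates come from separate differentiations, so all p-values measure only the spread between these libraries, which may be technical.

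The 3p arms were then compared within libraries, where no scaling is needed, to see which MIR138 gene the reads came from. miR-138-2-3p made up 78.5% of the 3p counts of the MIR138 genes in exposed replicate 1 (95% Wilson interval 75.8 to 80.9%, 1013 counts) and 77.6% in exposed replicate 2 (74.8 to 80.2%, 907 counts). In the unexposed libraries it made up 77.8% (73.9 to 81.3%, 483 counts) and 79.6% (75.6 to 83.0%, 450 counts). Each library's share thus lay inside the counting intervals of the other 3, and miR-138-2-3p had between 3.47 and 3.89 times the counts of miR-138-1-3p. The log2 ratio of miR-138-1-3p to miR-138-2-3p was -1.83 ± 0.051 (SD, n = 2) in exposed and -1.88 ± 0.10 (SD, n = 2) in unexposed cells, with an exact permutation p of 0.667. Without molecular identifiers, these intervals describe counting error alone. How efficiently each 3p arm entered the libraries was not measured, so the shares are of counts.

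The balance of the miR-138 arms was less even between libraries. miR-138-5p had 1.54 and 1.57 times the summed counts of the 3p arms in the exposed libraries, and 1.51 and 1.12 times in the unexposed libraries. Unexposed replicate 2 stood apart, and the other 3 libraries lay close together. The log2 ratio was 0.64 ± 0.021 (SD, n = 2) in exposed and 0.38 ± 0.31 (SD, n = 2) in unexposed cells, a difference of 0.26 with an exact permutation p of 0.333, the smallest the design allows. The groups did not overlap for this ratio, which was also so for 29.7% of the 195 precursors with both arms tested, and without unexposed replicate 2 the difference was 0.044. In that library the log2 ratio was lower than the mean of the other 3 by 0.46, and 37 of the 195 precursors had a 5p to 3p ratio that was lower there by at least as much. The fold of 1.42 between the miR-138 arms, over the mean of the 4 libraries, compares with a median of 9.98 over those precursors, of which 18 had a smaller fold. For miR-138 the 3p counts of both genes were summed, since the shared 5p arm collects the reads of both.

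Whether the authors' counting had added each miR-138-5p read once per gene could not be settled from its own 4 counts. Counts made that way would all be even, and those of miR-138-5p were even in all 4 libraries (1562 and 1428 with ethanol, 730 and 504 without). All 4 counts were even for 4 of the 36 mature miRNAs with 2 genes in RefSeq and at least 20 counts in every library, miR-138-5p among them, and for 29 of the 483 single-gene miRNAs. The rest of these 36 each had an odd count in at least 1 library, which counting once per gene does not give. Of the single counts, 56.25% were even for the miRNAs with 2 genes and 50.2% for those with 1. If each read had been counted once per gene, miR-138-5p would have had 0.771 and 0.787 times the summed 3p counts with ethanol and 0.756 and 0.560 times without, which puts it below the 3p arms, and its level and rank would be lower too. The comparison of exposed with unexposed cells does not depend on this, since the factor would be the same in every library.

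miR-138-5p was counted less often than miR-137-3p in every library. Its counts were 0.827 and 0.692 times those of miR-137-3p with ethanol and 0.738 and 0.672 times without. The log2 ratio was -0.40 ± 0.18 (SD, n = 2) and -0.51 ± 0.096 (SD, n = 2), with an exact permutation p of 0.667, so the order of the main arms was the same in both groups. Had each read been counted once per gene, these ratios would be lower still, from 0.336 to 0.414.

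**Figure D3:**
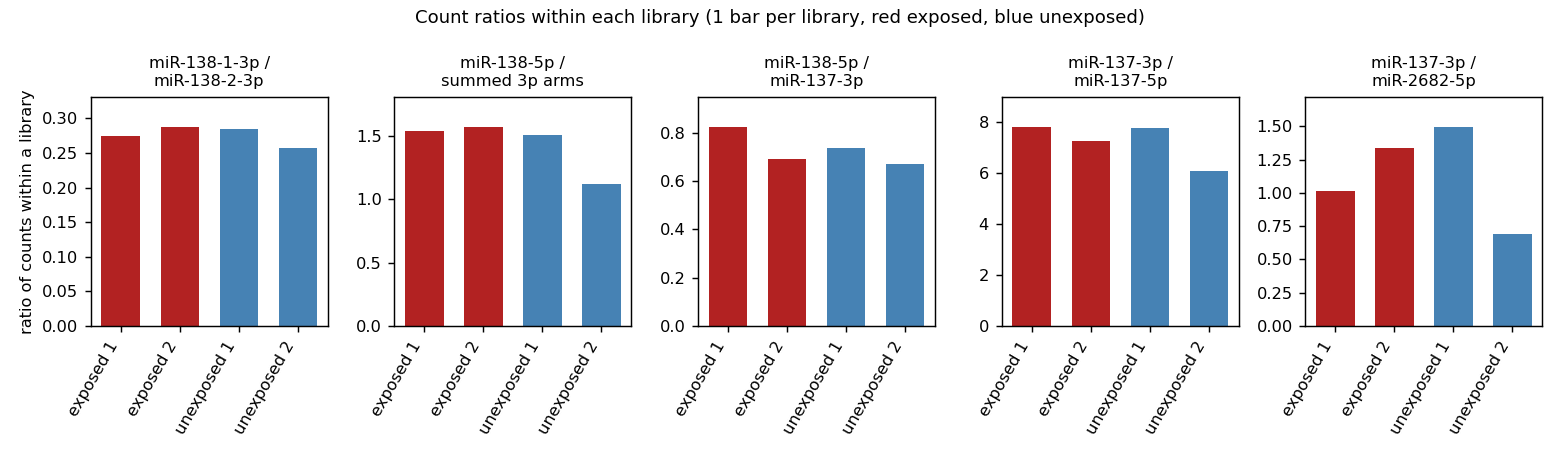
Ratio of counts within each library (vertical axis, from 0; 1 bar per library, exposed in red and unexposed in blue) for 5 pairs of arms. The ratio of miR-138-1-3p to miR-138-2-3p is level across the 4 bars, between 0.257 and 0.288, while in unexposed replicate 2 miR-138-5p falls to 1.12 times the summed 3p arms and miR-137-3p to 0.692 times miR-2682-5p.

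The MIR137 locus holds another miRNA gene, MIR2682, 718 bp away at chr1:98045242-98045351 on the same strand and inside an exon of MIR137HG (GENCODE 29). That exon belongs to transcript MIR137HG-201, whereas MIR137 lies in exons of transcripts MIR137HG-202, MIR137HG-204 and MIR137HG-205. MIR2682 was chosen for its position after its values had been seen. miR-2682-5p was counted about as often as miR-137-3p, at rank 197, with 73.7 and 63.3 CPM in the exposed libraries and 55.9 and 84.2 CPM in the unexposed libraries. The other arm, miR-2682-3p, had between 3 and 10 counts per library. Unexposed replicate 2 had the highest level of miR-2682-5p and the lowest of miR-137-3p. There were 1.02 and 1.34 counts of miR-137-3p per count of miR-2682-5p in the exposed libraries, and 1.50 and 0.692 without ethanol. Replicates differed widely for other miRNAs too. Over all tested miRNAs, the SD of the log2 difference between replicates was 0.46 in exposed and 0.70 in unexposed cells. Whether the ratio of these neighbouring genes' products varied more than that of other pairs was not tested. The log2 fold change of miR-2682-5p was -0.034 (standard error 0.28), for which edgeR's P was 0.906 and the exact permutation p 1, and its ratio to miR-137-3p also had an exact permutation p of 1.

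The miRNAs whose profile over the 4 libraries lay nearest to those of the main arms were found by the root mean square (RMS) difference of centred log2 CPM, among 376 miRNAs with a mean of at least 10 CPM. These are descriptions over 4 points that share the same libraries and scaling. Nearest to miR-137-3p were miR-2277-5p (RMS difference 0.045 on the log2 scale), miR-488-5p, miR-4677-3p, miR-876-3p and miR-340-5p (0.077), where the median over all candidates was 0.28. Nearest to miR-138-5p were miR-5010-3p (0.040), miR-185-3p, miR-455-3p, miR-488-5p and miR-2355-3p (0.078), against a median of 0.32. For each of these the lowest library was unexposed replicate 2, as for miR-137-3p and miR-138-5p themselves. This likeness, and the small differences, follow from choosing the miRNAs by profile. The profiles of miR-137-3p and miR-138-5p lay 0.12 apart on the same measure, and that of miR-138-5p lay 0.16 and 0.21 from those of miR-138-1-3p and miR-138-2-3p.

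A list of 19 other miRNAs known from work on dendrites, spines and synapses was read beside them. All 19 were tested, 1 was higher in exposed cells with an unadjusted P under 0.05 and 0 were lower, against 4.52% of all tested miRNAs in either direction, and the median log2 fold change was -0.029. The groups did not overlap for 5 of the 19, against 33.4% of all tested miRNAs. The list ran from miR-188-5p at 4.47 CPM in exposed cells to miR-9-5p at 175924 CPM. Both miR-137-3p and miR-138-5p lay below miR-132-3p, an activity-dependent miRNA, at 1409 CPM in exposed cells, and above miR-134-5p, which acts on spines through LIMK1, at 22.1 CPM.

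The 1 that passed was miR-124-3p, the neuron-enriched miRNA that keeps non-neuronal transcripts low. The exposed libraries had 5405 and 3362 CPM, the unexposed libraries had 2947 and 2190 CPM, and the groups did not overlap. The log2 fold change was 0.77 (standard error 0.30), with an unadjusted P of 0.0316 and an adjusted p of 0.922 in edgeR. The value moved both ways when 1 library was left out. It was 0.39 (P 0.374, adjusted p 0.999) without exposed replicate 1 and 0.53 (P 0.0663, adjusted p 0.490) without unexposed replicate 2 in edgeR. It was 1.08 (P 0.0135, adjusted p 0.692) without exposed replicate 2 and 1.00 (P 0.00026, adjusted p 0.0169) without unexposed replicate 1, a fit in which 10.1% of the 977 miRNAs tested had a P under 0.05. The lowest value of the list belonged to miR-191-5p, with 3783 and 4870 CPM under ethanol and 6765 and 4911 CPM without it, a log2 fold change of -0.43 (standard error 0.26) with an unadjusted P of 0.139 in edgeR. For miR-132-3p, at 1416 and 1403 CPM under ethanol and 1219 and 1243 CPM without it, the groups did not overlap and the log2 fold change was 0.19 (standard error 0.20), with an unadjusted P of 0.367. Of the 19, 9 had a log2 fold change above 0 with TMM, 12 with library size only and 6 with upper quartile scaling.

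**Figure D4:**
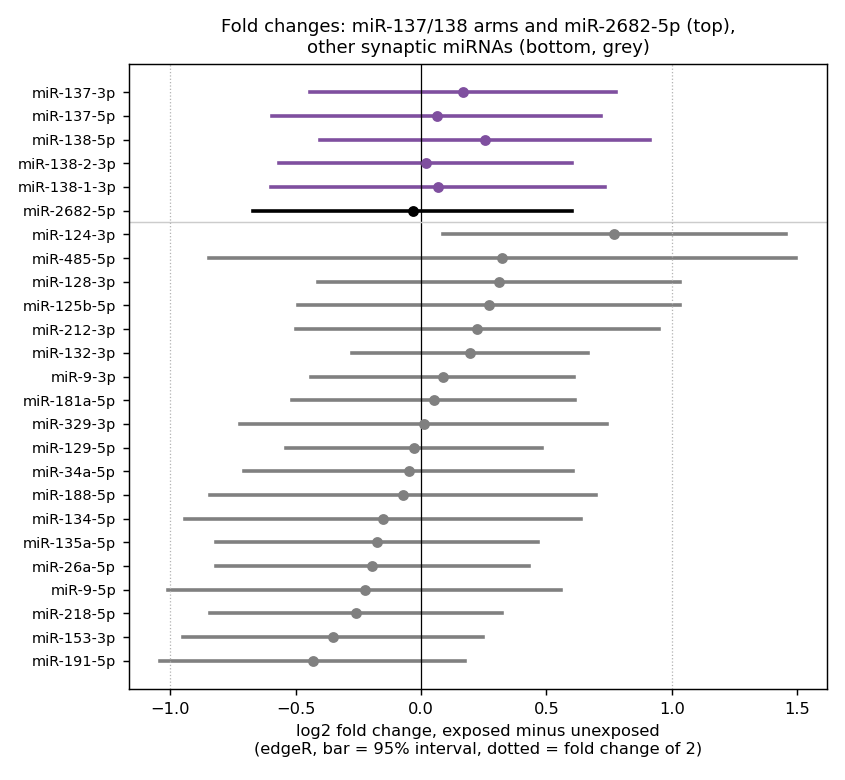
Log2 fold change of exposed against unexposed cells (horizontal axis) with its 95% interval from edgeR after TMM scaling. The 5 miRNAs are in purple, miR-2682-5p in black and the 19 other synaptic miRNAs in grey. The dotted lines mark a fold change of 2. The intervals of the 5 all include 0 and stay between the dotted lines, and that of miR-124-3p, from 0.088 to 1.45, is the 1 interval that does not include 0.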

How the data were processed

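For 4 NEBNext small RNA libraries the authors deposited unnormalized read counts on mature miRNAs in 1 table. The reads were processed with CAP-miRseq, and the submitters' processing notes name hg19. Version and annotation release are not given in the sources used here. The members, lists and tests were chosen with earlier results of these data known.

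Counts were fitted over all miRNAs with edgeR 4.0.16 in R 4.3.3: filterByExpr (minimum count 10, minimum total 15), TMM factors, the quasi-likelihood test without covariates and Benjamini-Hochberg adjustment over the 863 miRNAs kept. The standard error came from the F statistic and the 95% interval from the fit's degrees of freedom. Within-library log2 ratios used counts plus 0.5 and two-sided exact permutation tests (scipy 1.17.1). The thresholds were the paper's, an unadjusted P of 0.05 and a fold change of 2. The fit was tested on simulated counts.

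Other settings tried were DESeq2 1.42.0, limma-voom (limma 3.58.1), other scalings, filters and pseudocounts, a replicate block, and leaving out each library. Named were the 5 members, miRNAs sharing a seed, members of the lists at the ends or past the threshold, the 2 neighbours on each side in level and the 5 nearest profiles. Any other was chosen after its values were seen. Replicate libraries were not one library deposited again: chi-square per degree of freedom was 795 for the exposed and 712 for the unexposed pair over the 863 miRNAs. Positions and sequences are GRCh38 (GENCODE 29, RefSeq GRCh38.p14), matched by name, since the counts carry no coordinates.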

Additional observations from a re-analysis of the deposited data

How the results depend on the processing

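No member passed an unadjusted P of 0.05 under any tool, scaling, filter or block tried (10 settings), and without unexposed replicate 1 the number was 1 (miR-138-5p), in a fit where 99 of 977 miRNAs (10.1%) had such a P. Those 10 settings gave log2 fold changes from 0.066 to 0.34 for miR-137-3p and from 0.15 to 0.44 for miR-138-5p. The sign of the rarer arms changed, to -0.039 for miR-137-5p, -0.039 for miR-138-1-3p and -0.090 for miR-138-2-3p with upper quartile scaling, and to -0.019 for miR-138-2-3p both in DESeq2 and with DESeq2's size factors in edgeR. The scaling moves all miRNAs together, and the cause of the sign changes was otherwise not tested. Leaving out 1 library in turn gave -0.11 to 0.45 for miR-137-3p, -0.082 to 0.20 for miR-137-5p, -0.13 to 0.24 for miR-138-1-3p, -0.11 to 0.11 for miR-138-2-3p and -0.074 to 0.62 for miR-138-5p, and 0 to 1 members past the threshold. With the replicate number as a block the log2 fold changes were 0.19 for miR-137-3p and 0.29 for miR-138-5p, with P of 0.548 and 0.358 in edgeR. The differences between replicates 1 and 2 were weakly and negatively correlated between exposed and unexposed cells (-0.187 over miRNAs). A crossed replicate block was therefore added after seeing the data, and P was 0.467 for miR-137-3p and 0.327 for miR-138-5p in edgeR. No call among the 5 changed under either. Adding 1 instead of 0.5 to the counts moved no ratio by more than its spread between replicates. Over all miRNAs, 39 of 863 had a P under 0.05 (4.52%). Over the same 863 the number was 37 with library size only, 43 with upper quartile scaling, 31 with limma-voom, 28 with DESeq2, 25 with the replicate block and 59 with the crossed block. It was 94 of 1825 (5.15%) with at least 1 count in any library as the filter. It was 12 of 845 (1.42%) without exposed replicate 1, 43 of 871 (4.94%) without exposed replicate 2, 99 of 977 without unexposed replicate 1 and 109 of 954 (11.4%) without unexposed replicate 2. The rarest arm, miR-138-1-3p, had 92 to 218 counts per library. Its standard error of 0.29 was close to the 0.28 of miR-138-5p, and the effect of depth was not tested.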
